A study of Mus musculus with 20 samples.

Results

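The effect of Rpl10a siRNA on the mRNA content of heavy polysomes was measured in E14 mouse embryonic stem cells, a pluripotent line. The comparison took in 4 of the 20 libraries of the series: 2 from the heavy pool of cells given an Rpl10a siRNA and 2 from the heavy pool of cells given a control siRNA. All 8084 transcripts that these libraries list were used. Cells were genetically wild type in both groups. One siRNA against Rpl10a and one universal negative control siRNA were delivered with a lipid reagent, and the labels do not state the time between transfection and harvest. Both groups received 100 µg/ml cycloheximide, which stops elongating ribosomes in place, for 1 min before harvest. The heavy pool combined the gradient fractions in which an mRNA carries at least 4 ribosomes. Its counterpart, the light pool (2 Rpl10a siRNA and 2 control siRNA libraries), held the rest of the gradient: free ribonucleoproteins, subunits, single ribosomes and polysomes with 2 or 3 ribosomes. Ribosome footprint libraries, from E14 lines that carry an epitope tag on 1 endogenous allele of Rpl10a, Rps25 or Rpl22 and received no siRNA per the labels, served as independent measures of each transcript.

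RPL10A is a protein of the large ribosomal subunit. mRNAs that initiate often load several ribosomes and sediment deep in a sucrose gradient, whereas free mRNAs and those with a single ribosome stay near the top, so heavy fractions are enriched for actively translated mRNAs. Values were scaled within each library. A rise therefore means a larger share of the heavy pool, the amount of RNA in the pool was not measured, and fewer cells and less RNA per cell cannot be told apart. Transcripts carry UCSC identifiers, for which no gene names were found in the tables used; whether several belong to 1 gene, and so share reads, was not analysed here. The level of Rpl10a itself, the markers of pluripotent and other cells, and gene lists were not analysed here, so neither the knockdown nor the cell identity was checked.

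The libraries differed modestly in scale. The deposited values, headed RPM and scaled to library size, summed to 943664 and 997808 in the Rpl10a siRNA heavy libraries and to 1028650 and 1067209 in the control siRNA heavy libraries. The median transcript stood at 48.8 and 47.2 RPM with Rpl10a siRNA and at 43.6 and 43.9 RPM with control siRNA. Read depth is unknown, as no counts are given. On log2(RPM + 1), Rpl10a siRNA heavy replicates correlated with r = 0.975 across transcripts and control siRNA heavy replicates with r = 0.987. Correlations between the siRNAs ran from 0.922 to 0.952.

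Rpl10a siRNA changed the share of 4000 transcripts in the heavy pool, 49.5% of the 8084 tested (limma, Benjamini-Hochberg adjusted p below 0.05). Of these, 2164 rose (26.8%) and 1836 fell (22.7%). The median absolute change over all transcripts was 0.45 on the log2 scale. The 2 Rpl10a siRNA heavy libraries differed from each other by a median of 0.24, and the 2 control siRNA heavy libraries by 0.16. The groups did not overlap for 5989 transcripts (74.1%; 38.1% higher and 36.0% lower), and for all 4000 that were called. With 2 libraries against 2, separation has an exact two-sided permutation p of 0.333, and the calls rest on the same values. The balance of the directions depended on the scaling. With library medians aligned, 1687 rose and 2473 fell, and with library totals 2454 rose and 1243 fell. The median change over all transcripts was 0.01 as deposited, −0.12 with medians aligned and 0.12 with library totals. Without the second control siRNA heavy library 1500 transcripts were called, and without the first Rpl10a siRNA heavy library 2561 were.

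The heavy changes were not gathered around 0. In steps of 0.2 on the log2 scale, the fullest step was −0.6 to −0.4, with 1186 transcripts. The count declined to 794 between 0 and 0.2, stayed level at 787, 791 and 806 in the 3 steps up to 0.8, and then dropped to 536 and 221. The left edge was steeper: 758 transcripts lay between −0.8 and −0.6, 108 between −1 and −0.8, and 17 below −1. In the light pool the changes had a single peak at 0, where the steps on either side held 1800 and 1966 transcripts. Changes within 0.2 of 0 made up 20.9% of transcripts in the heavy pool and 46.6% in the light pool. The heavy shape depended on the libraries. Quartiles were −0.53 and 0.67 for the first Rpl10a siRNA minus the second control siRNA heavy library, and −0.32 and 0.40 for the second minus the first. For the light change they were −0.21 and 0.23. Replicates differed by medians of 0.24 and 0.16 in the heavy and 0.14 and 0.13 in the light groups. The place of 0 also moves with the scaling.

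**Figure D1:**
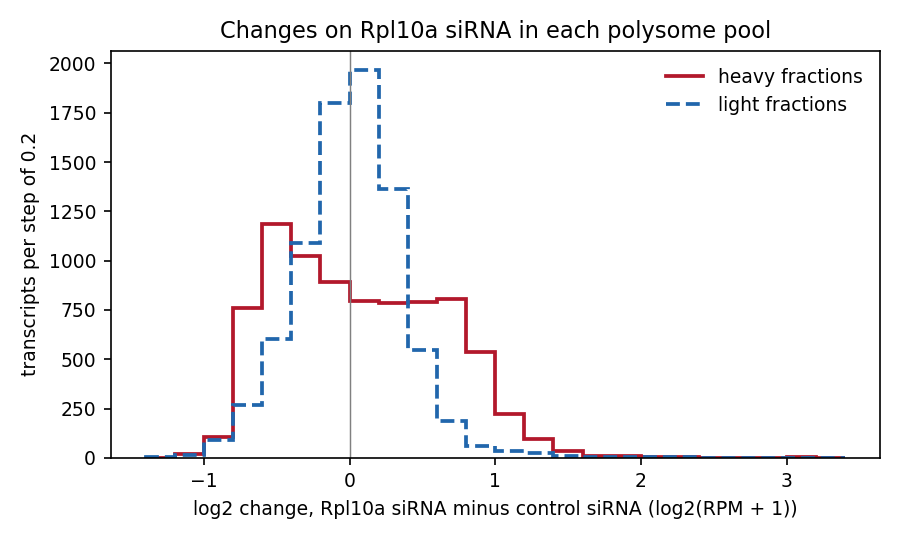
Number of transcripts (y axis) by log2 change, Rpl10a siRNA minus control siRNA, on log2(RPM + 1) (x axis, steps of 0.2), in heavy fractions (solid) and light fractions (dashed). The heavy changes peak between −0.6 and −0.4 with 1186 transcripts and run on as a plateau up to 0.8, while the light changes peak around 0. Values are scaled as deposited, and the place of 0 moves with the scaling.

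The size of the changes was uneven between the directions. A rise past 2-fold was estimated for 381 transcripts and a fall past 2-fold for 17. Measured from the median change, the counts were 353 above and 18 below. The changes did not peak at the median, and another reference would give other counts. Counted from 0, there were 201 rises and 58 falls with library medians aligned, and 631 and 2 with library totals. Counted from the median change, the numbers were 353 and 18 with medians aligned, and 358 and 18 with totals. Centring on the median makes these nearly equal by construction, so they are no separate support. The highest 1% of changes began 1.34 above the median, and the lowest 1% began 0.85 below it. The largest rise was 3.18 and the largest fall was −1.17. In 135 transcripts each Rpl10a siRNA heavy library stood more than 2-fold above each control siRNA heavy library, and in 0 did each stand more than 2-fold below. At 1.5-fold these counts were 854 and 214. In limma's test against a 1.5-fold change, 14 transcripts passed (0.173% of those tested), all higher. At an unadjusted p below 0.05, 594 higher and 46 lower ones did. Without single heavy libraries, the estimated rises past 2-fold ran from 347 to 723 and the falls from 45 to 86, rises being the more frequent each time. The single pairings of libraries showed the same imbalance, with 371 to 936 rises and 5 to 226 falls past 2-fold.

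The 4 named transcripts were chosen by rule among called transcripts with a mean at or above the median and non-overlapping heavy groups. They are the pair that rose most and the pair that fell most. Their separation in the heavy pool was required by the choice and carries no test. uc007rvs.2 stood at 115 and 189 RPM in the Rpl10a siRNA heavy libraries, against 12.4 and 18.9 RPM in the control siRNA heavy libraries. Both knockdown libraries were far above both controls. Its log2 change was 3.18, about 9.08-fold (SE 0.36, limma adjusted p = 0.00184). In the light pool it stood at 64.3 and 123 RPM with Rpl10a siRNA and at 16.1 and 24.5 RPM with control siRNA. That light change of 2.10 also passed (SE 0.36, limma adjusted p = 0.0336), and the difference between the heavy and light changes did not (1.08, SE 0.51, limma adjusted p = 0.191).

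uc007naj.2 had 113 and 154 RPM in the Rpl10a siRNA heavy libraries and 14.3 and 13.8 RPM in the control siRNA heavy libraries, again without overlap. The log2 change was 3.14 (SE 0.24, limma adjusted p = 0.00178). Its light values were 51.0 and 86.1 RPM with Rpl10a siRNA and 12.1 and 12 RPM with control siRNA, a called change of 2.37 (SE 0.24, limma adjusted p = 0.0277). Both transcripts thus rose in both pools. Total footprints of the Rpl10a line were 16.4 and 21.1 RPKM (reads scaled to length and library size) for uc007rvs.2 and 17.0 and 21.2 RPKM for uc007naj.2. Their mean log2 ratios of RPL10A-captured to total footprints were −0.13 for uc007rvs.2 and −0.29 for uc007naj.2. In the same order, the RPS25 ratios were 0.03 and −0.07 and the RPL22 ratios 0.10 and −0.27.

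uc007oye.2 fell to 108 and 117 RPM in the Rpl10a siRNA heavy libraries, against 209 and 274 RPM in the control siRNA heavy libraries (log2 change −1.08, SE 0.16, limma adjusted p = 0.00299). The groups were well apart. Its light values lay closer together, at 85.6 and 71.9 RPM with Rpl10a siRNA and 96.8 and 104 RPM with control siRNA (log2 change −0.35, limma adjusted p = 0.201). The difference between its pools was not called (−0.74, SE 0.22, limma adjusted p = 0.0730). RPL10A-captured footprints were 87.6 and 109 RPKM, against 67.2 and 65.0 RPKM in total libraries. Its mean log2 ratios of captured to total footprints were 0.56 for RPL10A, 0.37 for RPS25 and −0.09 for RPL22.

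uc007lpp.1 had 78.7 and 57.2 RPM in the Rpl10a siRNA heavy libraries and 147 and 139 RPM in the control siRNA heavy libraries (log2 change −1.08, SE 0.27, limma adjusted p = 0.0124). The groups did not overlap, but the knockdown replicates were less alike than the controls. Without the second Rpl10a siRNA heavy library its adjusted p was 0.0502, without the first control siRNA heavy library 0.0518 and without the second 0.0606 (limma). In the light pool it stood at 70.9 and 39.9 RPM with Rpl10a siRNA and at 109 and 82.7 RPM with control siRNA (log2 change −0.82, limma adjusted p = 0.0983). Its mean log2 capture ratios were 0.08 for RPL10A, 0.21 for RPS25 and −0.10 for RPL22. Neither this transcript nor uc007oye.2 passed the test against a 1.5-fold change (limma adjusted p = 0.625 for uc007lpp.1 and 0.234 for uc007oye.2).

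**Figure D2:**
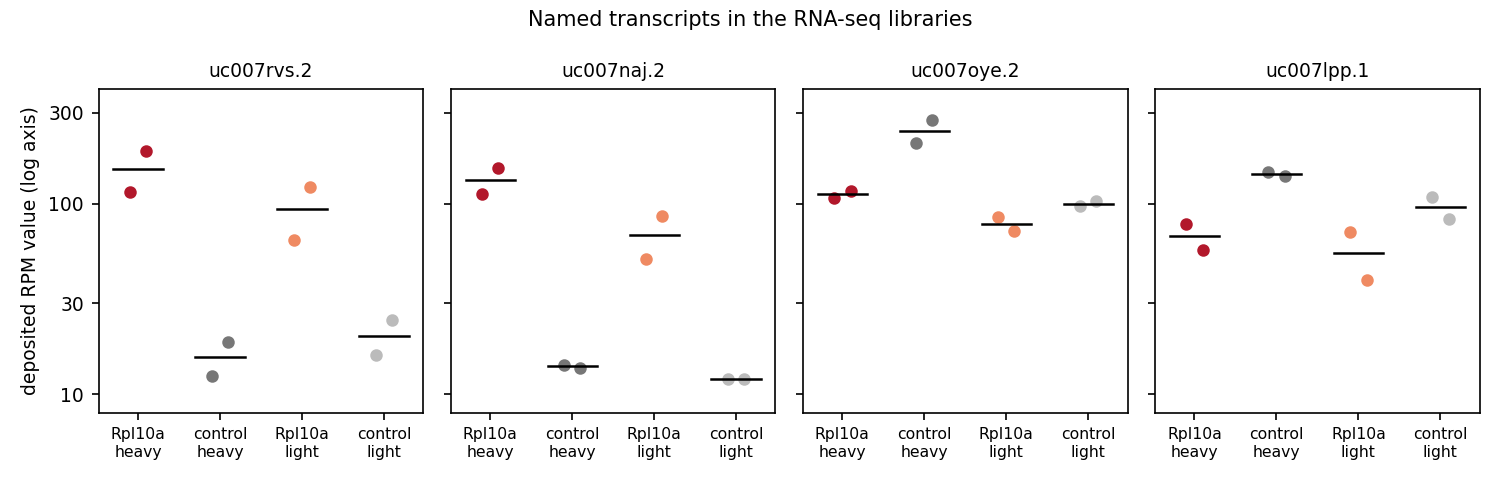
Deposited RPM values (y axis, log scale) of the 4 named transcripts in each RNA-seq library; points are single libraries and bars are means of 2. In uc007rvs.2 and uc007naj.2 the Rpl10a siRNA libraries lie above the control siRNA libraries in both pools, and uc007oye.2 has a log2 change of −1.08 in the heavy pool and −0.35 in the light pool, a difference that was not called.

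Transcripts with many footprints had lower heavy changes than those with few. To keep the level apart from the change, transcripts were ordered by total footprints of the Rpl10a line, which share no library with the heavy comparison. Footprints reflect both the amount of an mRNA and its load of ribosomes, which this order does not separate. The median heavy change was 0.10, 0.09, 0.05, −0.01 and −0.26 from the lowest to the highest quintile. In the highest quintile, with a median of 200.1 RPKM, 27.5% of transcripts rose and 41.9% fell, while in the lowest, with a median of 6.10 RPKM, 21.9% rose and 10.3% fell. The highest minus the lowest quintile gave −0.36, and from −0.46 to −0.23 in single pairings of libraries. Ordered by footprints of the Rps25 or Rpl22 line it gave −0.35 and −0.29. Light changes ran slightly the other way, with medians of −0.03 in the lowest and 0.06 in the highest footprint quintile. Quantile normalization, which forces equal distributions on the libraries, left a difference of −0.13.

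Few of the transcripts abundant in the control light pool had a heavy change near 0. Level was here taken from the control light libraries, whose replicate deviations correlated with those of the control heavy libraries (r = 0.526). These classes are therefore less independent of the heavy change than footprint levels. By quintiles of control light level the highest minus the lowest gave −0.54, against −0.36 by footprints of the Rpl10a line. Median light changes were 0.07 in the lowest and −0.07 in the highest of these quintiles, opposite in direction to the order by footprints. The control light libraries are themselves part of the light change, so that order is not independent of it. Among the 501 transcripts with at least 300 RPM in the control light libraries, 59.9% had a heavy change below −0.4 and 16.4% one above 0.4, while 8.98% lay within 0.2 of 0. Of them 293 fell (58.5%) and 82 rose (16.4%) (limma, adjusted p below 0.05). Over all transcripts 22.7% fell and 26.8% rose. Among the 1814 transcripts below 20 RPM, 15.3% lay below −0.4, 35.6% above 0.4 and 24.3% within 0.2 of 0. In that class 449 rose (24.8%) and 135 fell (7.44%), so rises were near their share over all transcripts and falls were fewer.

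**Figure D3:**
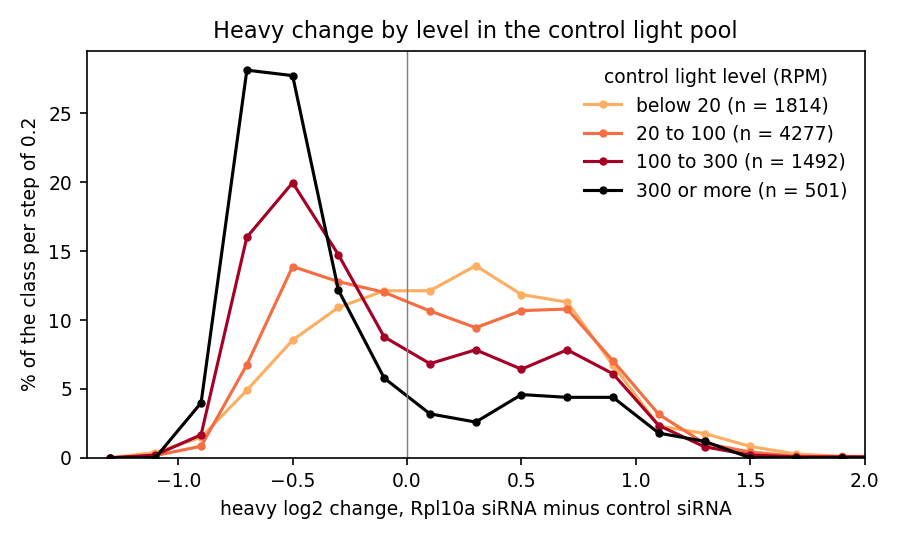
Share of each class (y axis, %) by heavy log2 change, Rpl10a siRNA minus control siRNA (x axis, steps of 0.2), for 4 classes of mean level in the control light libraries. The class at 300 RPM or more has a main peak below −0.4 and a low shoulder above 0.4, and the class below 20 RPM is spread broadly around 0.

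The heavy pool with Rpl10a siRNA was spread over more transcripts. It took the 644 and 538 most abundant transcripts of the Rpl10a siRNA heavy libraries to make up 50% of their signal, against 458 and 427 in the control siRNA heavy libraries. The light pool needed 492 and 436 with Rpl10a siRNA and 407 and 415 with control siRNA. The 100 transcripts that were most abundant in the control light libraries took 17.7% and 20.8% of the Rpl10a siRNA heavy libraries and 21.8% and 23.0% of the control siRNA heavy libraries. The difference was −3.09 percentage points, and −1.55 without the first Rpl10a siRNA heavy library. The top 10 alone went the other way, with 2.31% and 2.69% in the Rpl10a siRNA heavy libraries and 2.08% and 2.23% in the control siRNA heavy libraries. Groups did not overlap in any of these measures, but 2 libraries against 2 cannot go below an exact two-sided permutation p of 0.333.

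By description, the 2164 transcripts called higher held 31.0% and 27.6% of the Rpl10a siRNA heavy libraries and 16.1% and 14.8% of the control siRNA heavy libraries. The 1836 called lower held 35.8% and 39.8% with Rpl10a siRNA and 51.5% and 54.5% with control siRNA. These sets were chosen on the same libraries, so the shares carry no test. In the light libraries, which did not enter the heavy change itself, the higher set held 21.5% and 22.2% with Rpl10a siRNA and 17.6% and 18.7% with control siRNA. The lower set held 44.5% and 44.5% of the light libraries with Rpl10a siRNA and 47.7% and 46% with control siRNA. In both pools the higher set thus gained share and the lower set lost it, by less in the light pool.

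The light pool was then set beside the heavy one, to see which heavy changes were shared. In light fractions 495 transcripts (6.12%) were called, 203 higher (2.51%) and 292 lower (3.61%). Of the 2164 transcripts called higher in the heavy pool, 80.4% also had a light change above 0, with a median of 0.20. Of the 1836 called lower, 32.5% did, with a median of −0.17. Over all transcripts the share was 52.1% and the median 0.02. Calls in both pools with 1 direction numbered 325, which is 65.7% of the light calls and 8.13% of the heavy calls. No light transcript was called without either control siRNA heavy or light library or without the second Rpl10a siRNA light library, 90 were called without the first Rpl10a siRNA light library, and 978 to 987 without either Rpl10a siRNA heavy library. At an unadjusted p below 0.05, limma gave 2087 light changes with all libraries and 1036 to 1933 in the reduced sets without an adjusted call.

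The strongest rises mostly shared their direction between the pools, and as a set were smaller in the light pool. Of the 372 transcripts called higher past 2-fold in the heavy pool, 367 had a light change above 0, with a median of 0.50, and 81 were called higher there. Their median heavy change was 1.15. For 63 of the 372 the heavy change was called above the light one, against 2.86% over all transcripts. The set was chosen on the heavy change, so this count is partly built in and carries no test. The 11 that rose more than 4-fold had a median light change of 2.20. Each of these 11 was above 0 in the light pool, and 9 were called higher there. In the control light libraries these 11 had a median of 12.1 RPM, against 45.8 RPM over all transcripts. The 15 transcripts called lower past 2-fold had a median light change of −0.53, and all 15 were below 0.

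The difference between the heavy and the light change was itself tested. It was called for 520 transcripts (6.43%), 231 with the heavy change above the light one (2.86%) and 289 below it (3.57%) (limma, adjusted p below 0.05). These calls included 217 of the 2164 transcripts that rose in the heavy pool and 265 of the 1836 that fell there. The other 38 had no heavy call. The heavy change is itself part of the tested difference, so this overlap is partly built in and carries no test. With any 1 of 7 libraries left out, limma called 0 transcripts, and without the second Rpl10a siRNA heavy library it called 2070. At an unadjusted p below 0.05 the 7 reduced sets gave 1589 to 2237, where none passed the adjustment. With medians aligned the split was 112 above and 412 below.

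**Figure D4:**
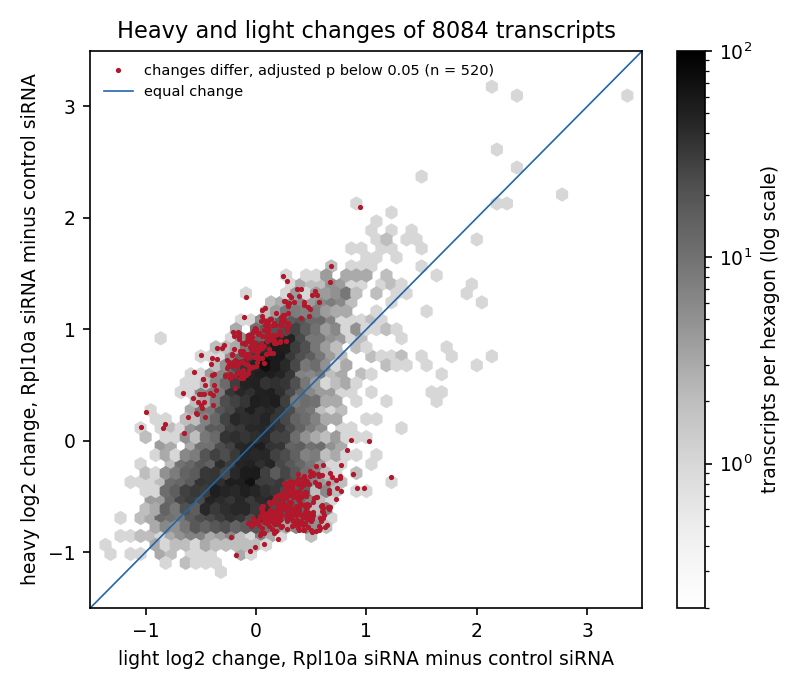
Heavy log2 change (y axis) against light log2 change (x axis), each Rpl10a siRNA minus control siRNA, for 8084 transcripts; grey hexagons count transcripts, the line marks equal change, and points mark the 520 transcripts whose 2 changes differed (limma, adjusted p below 0.05). The strongest rises are positive on both axes, and of the called differences 231 lie above the line and 289 below it, 38 of them without a heavy call.

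Heavy changes were also read by where an mRNA sits in control cells. To avoid shared libraries, the control heavy minus light difference came from one replicate number and the heavy change from the other. The quintile most weighted to heavy polysomes had medians below 0 in both arrangements, at −0.24 (33.5% above 0) and −0.45 (11.4% above 0). The quintile most weighted to the light pool had a median of −0.13 with quintiles from the first and the change from the second replicates, and 0.32 with these roles exchanged. Its direction thus differed between the arrangements, which change both choices at once. Quintiles 2 and 3 had medians above 0 in both, from 0.17 to 0.39.

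The study's design raises the question of whether mRNAs on RPL10A-containing ribosomes depend on RPL10A. The 200 transcripts with the highest ratio of RPL10A-captured to total footprints had a median heavy change of −0.13, and the 200 with the lowest had −0.22, against 0.01 over all 8084. In the high list 10.5% rose and 15.5% fell, and in the low list 12% rose and 21.5% fell. Over all transcripts 26.8% rose and 22.7% fell, so both lists held fewer calls in each direction. All transcripts are not matched to the lists in level, as median total footprints were 5.93 RPKM in the high and 14.2 RPKM in the low list. In the lowest footprint quintile (median 6.10 RPKM) 21.9% rose and 10.3% fell, and in the second (12.7 RPKM) 25.2% and 13.9%. Both list medians of the heavy change lay below that of all transcripts. The high minus the low list gave 0.09, and from −0.02 to 0.19 without single heavy libraries, being below 0 without the first control siRNA heavy library. Lists of 100 transcripts gave 0.17 and lists of 400 gave 0.0011. Over the quintiles of the ratio, medians stayed between −0.03 and 0.08.

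RPS25 is a protein of the small subunit. Its 200 highest capture ratios had a median heavy change of 0.01, with 23.0% rising and 15.5% falling, and its 200 lowest had −0.28, with 8.50% rising and 28.0% falling. Over all 7704 transcripts measured in that line 27.1% rose and 23.2% fell. The high minus the low list gave 0.30, against 0.09 for RPL10A. Without the first Rpl10a siRNA heavy library both lines gave 0.10, and without the second control siRNA heavy library both gave 0.19, so the gap between them rests on these libraries. In both lines the lists differed in level: median total footprints were 5.93 RPKM in the high and 14.2 RPKM in the low RPL10A list, and 7.73 RPKM in the high and 12.8 RPKM in the low RPS25 list. The highest minus the lowest ratio quintile was also taken within 5 footprint levels, from the lowest level to the highest. For RPL10A it gave −0.10, 0.10, −0.06, −0.02 and −0.18, below 0 at all but the second level, unlike the list difference of 0.09. For RPS25 it gave 0.08, 0.25, 0.15, 0.16 and 0.02, above 0 at each level.

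RPL22, another large-subunit protein, gave the widest difference of the 3 lines, in the other direction from RPS25. The 200 transcripts with its highest capture ratios had a median heavy change of −0.44, with 7.50% rising and 43% falling, while the 200 with the lowest had 0.12, with 33.5% rising and 15.5% falling. Over all 7489 transcripts measured in that line 27.6% rose and 23.8% fell. Medians descended through the quintiles of the ratio, from 0.21, 0.18, 0.09 and −0.05 to −0.31. The difference between high and low lists was −0.56, and ran from −0.61 to −0.39 without single heavy libraries. The lists differed in level, with median total footprints of 26.0 RPKM in the high and 11.9 RPKM in the low list. Within each of 5 footprint levels, taken from the same total libraries as the ratio, the heavy median of the highest ratio quintile lay below that of the lowest, the difference being −0.28 at the lowest level and −0.90 at the highest. Light changes spanned less, with medians of −0.13 in the high and 0.01 in the low list. The labels of the Rpl22 line name the anti-HA antibody for its total libraries too. Its lysis buffer, like that of the RNA-seq samples, listed no heparin. The part of these points in the result was not tested.

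**Figure D5:**
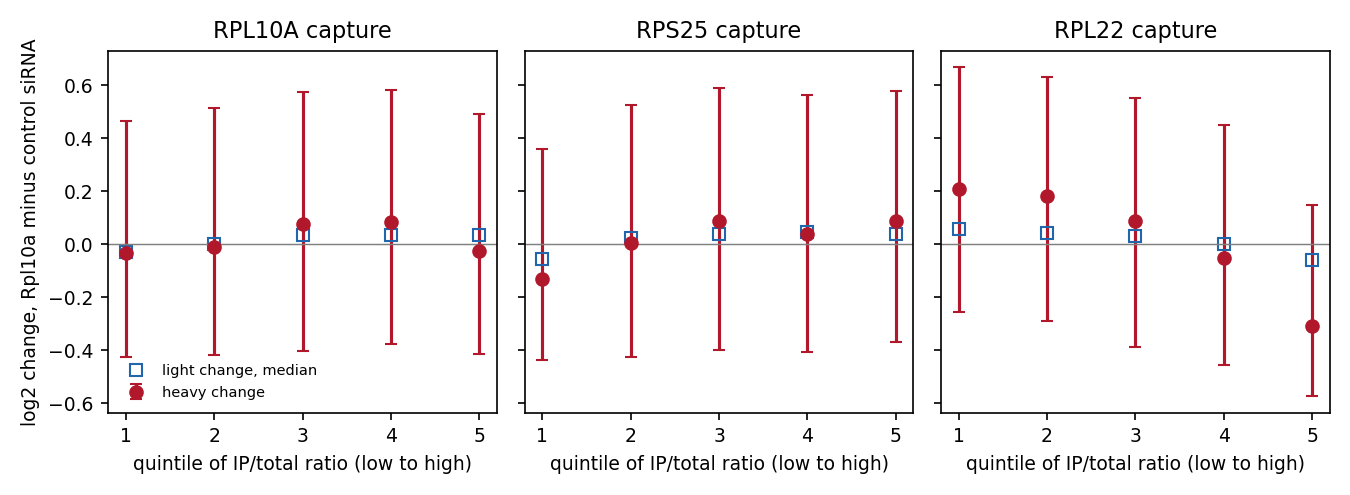
Heavy log2 change, Rpl10a siRNA minus control siRNA (y axis; filled points are medians, bars run from the lower to the upper quartile), by quintile of the log2 ratio of captured to total footprints in 3 tagged lines (x axis, low to high); open squares are median light changes. The heavy median descends from 0.21 to −0.31 over the RPL22 quintiles and stays between −0.03 and 0.08 over the RPL10A quintiles.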

How the data were processed

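Per the file headers, the authors deposited RPM for each RNA-seq library and RPKM for each Ribo-Seq library, per UCSC transcript. The RPM columns sum to between 943664 and 1067209, so these values, deposited by the authors as RPM, were treated as a signal to which the authors may have applied another scaling that no header or label records. Named in the submitters' processing notes are cutadapt, Bowtie2, STAR and the mm10 build. Reads per transcript could not be recovered from values rounded to 1 decimal, so no count test was run and depth is unknown. Per the labels, libraries came from a stranded mRNA kit after rRNA depletion; the extract protocol given for them also describes footprint digestion.

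All 8 RNA-seq libraries (4 groups of 2) entered 1 fit of log2(value + 1) in limma 3.58.1 (R 4.3.3), with a variance trend, on all 8084 transcripts, as a two-sided test at a Benjamini-Hochberg adjusted p below 0.05. The scale understates changes of low transcripts. Labels do not state separate cultures, so p-values reflect only sample-to-sample spread, possibly technical. Capture ratios were mean log2(RPKM + 1), captured minus total. Named transcripts were the 2 largest rises and 2 largest falls with a call, non-overlapping groups and a mean over libraries of at least the median. The comparison, lists and tests were chosen with earlier results of these data known. The control-distribution quintiles, capture-ratio quintiles with their split by level, all alternatives for the capture lists, level classes, histogram and counts past 2-fold were added after seeing the values.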

Additional observations from a re-analysis of the deposited data

Results flagged for a closer look

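The difference between the heavy and the light change was called for 520 of 8084 transcripts (limma, adjusted p below 0.05), a test of whether the effect of Rpl10a siRNA differed between the 2 pools. The count was 0 with any 1 of 7 libraries left out, 2070 without the second Rpl10a siRNA heavy library, 0 without a variance trend and 268 after quantile normalization. At an unadjusted p below 0.05 limma gave 2462 with all libraries. None of the 4 named transcripts was among the 520 called at an adjusted p below 0.05. The cause was not tested.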

How the results depend on the processing

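The number of heavy calls (4000) was within 1.5 times of that value under both other pseudocounts, the filter on mean values of at least 5, all 4 other scalings, no variance trend and the heavy libraries alone (2842). It was 1893 at an adjusted p below 0.01 and 14 in the test against a 1.5-fold change, and from 1500 to 4258 without single libraries. The light calls (495) were 260 without a variance trend, 0 at 0.01 and 0 against 1.5-fold, and from 0 to 987 without single libraries. Called differences between pools (520) were 268 after quantile normalization, 0 without a trend, 0 at 0.01, 0 against 1.5-fold, and from 0 to 2070 without single libraries. At an unadjusted p below 0.05, limma gave 2443 differences without a trend, and against 1.5-fold 202 differences and 107 light changes.

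Labels tie replicate numbers to no culture or day. Same-numbered deviations correlated with r = 0.622 between the heavy groups and from 0.403 to 0.621 between the others. A replicate block gave 5248 heavy calls, among them all 4000 of the fit without it (5334 with heavy libraries alone), 1912 light calls and 2520 differences between pools, 1463 above and 1057 below 0, which turns round the balance of 231 above and 289 below without the block.

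The footprint-level difference (−0.36) was −0.54 by control light level, −0.13 after quantile normalization and from −0.43 to −0.25 without single libraries. The share of the 100 most abundant transcripts (−3.09 points) was 0.34 for 10, −5.01 for 1000, and from −4.64 to −1.55 without single libraries. The RPL10A list difference (0.09) ran from −0.0202 to 0.19 without single libraries. The causes were not tested. Of 21 alternatives, uc007rvs.2 and uc007naj.2 kept their calls in 21, uc007oye.2 in 20 and uc007lpp.1 in 16, with no sign reversed. A pair of libraries per group limits precision, and a group left with 1 library was assumed to vary like the others.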
